A study of Mus musculus with 12 samples.

Results

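Stabilised β-catenin and inhibition of the kinase GSK3 were compared gene by gene, in mouse B cell precursors, for changes that both shared and for changes in which they parted. The comparison covers 13861 of the 47069 genes in the deposited table, those with at least 1 FPKM (fragments per kilobase, scaled to the fragment total of the library) in at least 3 of the 12 libraries. The genetic effect is the difference between β-catenin stabilised libraries (numbers 244, 255 and 262) and sorted control libraries (numbers 242, 249 and 251). The drug effect is the difference between inhibitor libraries and untreated libraries, both numbered 242, 249 and 251. Values per library are given in the order of these numbers.

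All precursors were grown from hematopoietic stem cells. β-catenin stabilised cells came from Mb1crex Catnb lox(ex3) mice, in which Cre is driven from the Mb1 (Cd79a) locus of the B lineage and deletes exon 3 of the β-catenin gene Ctnnb1. Their controls are described only as control mice, so it is not given whether these carry the Cre. Both groups were sorted on B220, a surface marker of the B lineage that some NK and dendritic cells carry too. Inhibitor and untreated cells were wildtype, were kept overnight with or without 40 nM LY2090314 (a small-molecule GSK3 inhibitor), and were not sorted. The genetic effect therefore compares sorted cells that differed since Cre became active, and the drug effect unsorted cells after an overnight culture. Duration, sorting and kind of manipulation cannot be told apart where the effects differ. Separate animals per library are not stated, so p-values measure the spread between these libraries.

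Without a WNT signal, a cytoplasmic complex of the scaffolds AXIN and APC and the kinases CK1 and GSK3 phosphorylates β-catenin at sites encoded by exon 3, and the protein is degraded. Loss of exon 3 or of GSK3 activity both spare it, and it then enters the nucleus and activates genes through DNA-binding partners of the TCF/LEF family. GSK3 also phosphorylates many other proteins, among them glycogen synthase and the transcription factors MYC and JUN, so that an inhibitor can act without β-catenin.

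Fragment totals ran from 31.9 M to 49.8 M per library. Ctnnb1 itself averaged 280 ± 51.7 FPKM in β-catenin stabilised cells and 262 ± 23.9 FPKM in sorted controls, and 233 ± 8.33 FPKM with inhibitor and 246 ± 14 FPKM without (SD, n = 3 each). These levels, which were not called different, cannot show the loss of 1 exon. Some libraries stood apart. The summed FPKM of 12 B cell precursor markers was 601 in β-catenin library 244, against 2407 and 2043 in libraries 255 and 262. Library 244 also held both Xist and Y-linked transcripts. Both unsorted libraries numbered 249 were rich in myeloid RNA, with summed neutrophil markers of 7482 FPKM with inhibitor and 7479 FPKM without, against at most 463 FPKM in the other unsorted libraries. The sorted control and untreated libraries all carried the B cell precursor markers in abundance, with sums of 6153 to 6484 FPKM and 6242 to 8174 FPKM.

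More genes changed together than against each other. Here a gene is called when limma, in 1 model of all 12 libraries on log2(FPKM + 1), gave a Benjamini-Hochberg adjusted p under 0.05, and log2FC is the difference of group means on that scale, which understates the change of low genes. The genetic effect was called for 4802 genes (34.6% of those tested), 2435 higher (17.6%) and 2367 lower (17.1%). The drug effect was called for 2854 genes (20.6%), 1283 higher (9.26%) and 1571 lower (11.3%). Both effects were called in the same direction for 1478 genes, 621 of them higher in both (4.48%) and 857 lower in both (6.18%). These 1478 genes were 30.8% of the genetic calls and 51.8% of the drug calls. Opposite directions were called for 111 genes. Of those, 76 rose with stabilised β-catenin and fell with the inhibitor (0.548%), and 35 did the reverse (0.253%). The opposite genes were 2.31% of the genetic and 3.89% of the drug calls.

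A call in one effect and none in the other does not show that the effects differ, so the difference of both log2FC (genetic minus drug) was tested as well. It was called for 1264 genes (9.12%), above 0 for 841 and below 0 for 423. All 111 opposite genes were among them, which 2 called effects of opposite sign nearly ensure. Of the 1478 shared genes, 97 were among them. Effects counted as equal when both were called with the same sign and the 95% interval of the difference stayed within 2-fold either way. That held for 342 shared higher genes (2.47% of those tested) and 530 shared lower genes (3.82%), 8 of which had a called difference all the same. Another 517 shared genes were neither equal by this rule nor called different, so their effects are not shown to agree in size. An effect counted as one-sided when it and the difference were called, while the other effect was not called and its 95% interval stayed within 2-fold. By this rule 293 genes were one-sided genetic and higher (2.11%) and 126 one-sided genetic and lower (0.909%). Another 130 were one-sided drug and higher (0.938%) and 134 one-sided drug and lower (0.967%). On log2(FPKM + 1), a gene near 0 FPKM in both groups of the other effect meets the 2-fold interval easily. With a pseudocount of 0.1, one-sided genes numbered 269 genetic and 202 drug, against 419 and 264 in the main fit. Most genes called in a single effect reached neither standard, 2794 of 3213 for the genetic and 1001 of 1265 for the drug effect.

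**Figure D1:**
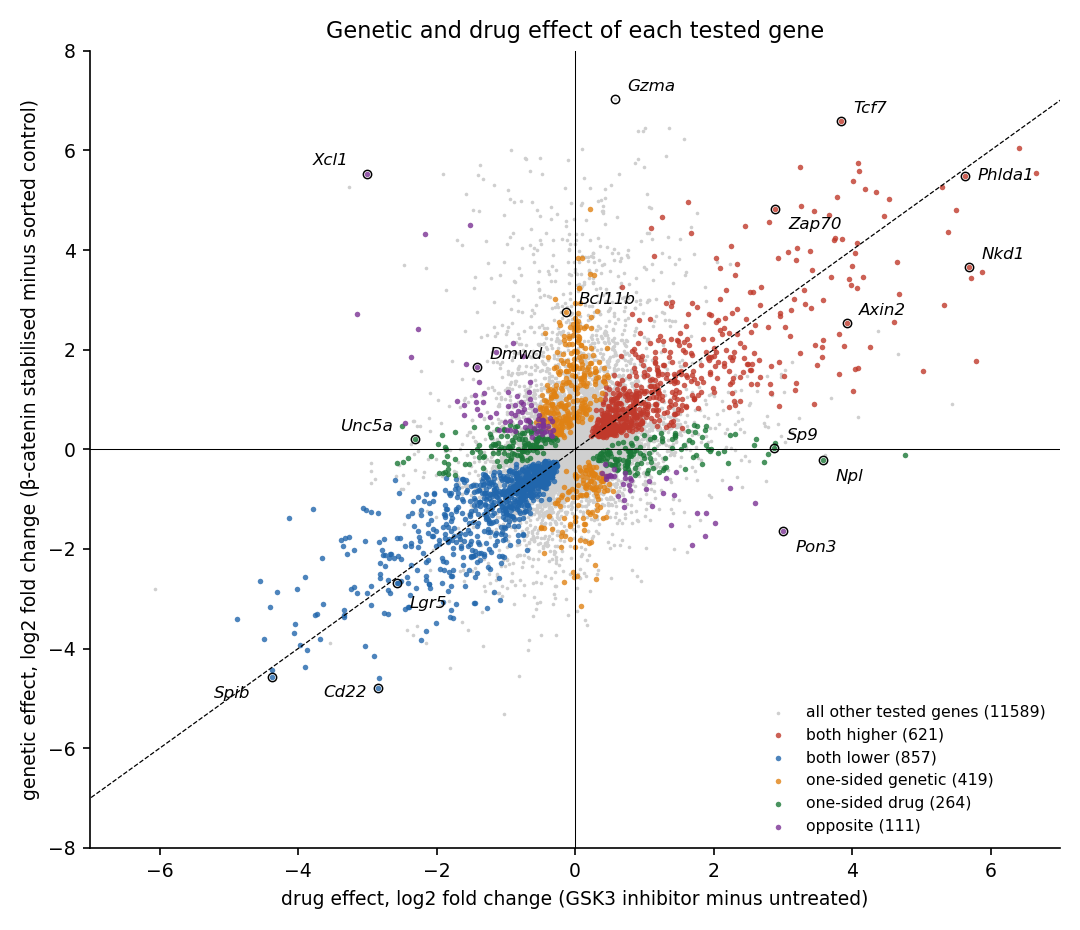
Genetic effect (vertical axis, log2 fold change, β-catenin stabilised minus sorted control) against drug effect (horizontal axis, log2 fold change, inhibitor minus untreated) for the 13861 tested genes, one point per gene, coloured by class, with the line of equal effects dashed. The 1478 shared genes lie in the upper right and lower left, the 111 opposite genes in the other corners.

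Across the 13861 genes the log2FC of both effects had a Pearson r of 0.43 (Spearman 0.40). Genes share libraries and are not independent replicates, so this describes these libraries. The signs were equal for 64.4% of all tested genes, for 83.0% of those called in the drug effect and for 55.4% of the 7794 called in neither. Set against each of the 3 inhibitor and untreated pairs, β-catenin library 244 had an r of 0.22 to 0.29. Library 262 reached 0.36 to 0.43 and library 255 had 0.46 to 0.54. Without library 244 the r over all genes was 0.50.

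The counts depended on the libraries to unequal degrees. Same-direction calls ranged from 1035 to 1831 when 1 library was left out, the highest without library 244, and 1342 of the 1831 were among the 1478. Without library 244 and both unsorted libraries 249 the count was 2095. Calls of the difference moved by over 1.5 times without β-catenin library 262 (480 genes), any sorted control (598, 516 and 479), inhibitor 242, 249 or 251 (551, 1997 and 600), or untreated 249 or 251 (708 and 671). Opposite calls moved likewise without β-catenin 255 or 262 (174 and 60), any sorted control (64, 65 and 51), any inhibitor library (60, 169 and 66), or untreated 249 or 251 (64 and 67). One-sided genetic genes numbered 658 without β-catenin 255, 119 without 262, 167, 141 and 126 without each sorted control, 156 without inhibitor 242, 170 without inhibitor 251, and 184 and 198 without untreated 249 and 251. One-sided drug genes numbered 89 without β-catenin 262, 105, 98 and 93 without each sorted control, 93, 423 and 115 without each inhibitor library, and 147 and 112 without untreated 249 and 251. Equal effects numbered 520 genes without sorted control 251 and 573 without untreated 242, and genetic calls 3035, of which 1400 were lower, without sorted control 251. Without library 244 and both unsorted libraries 249, 1015 genes were higher in both. Scaling each library to a common median shifted the median genetic log2FC from −0.01 to −0.14 and the split of genetic calls to 1849 higher and 3100 lower, against 2435 and 2367 as deposited. Quantile normalization gave 2033 higher and 2789 lower, with a median of −0.11.

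**Figure D2:**
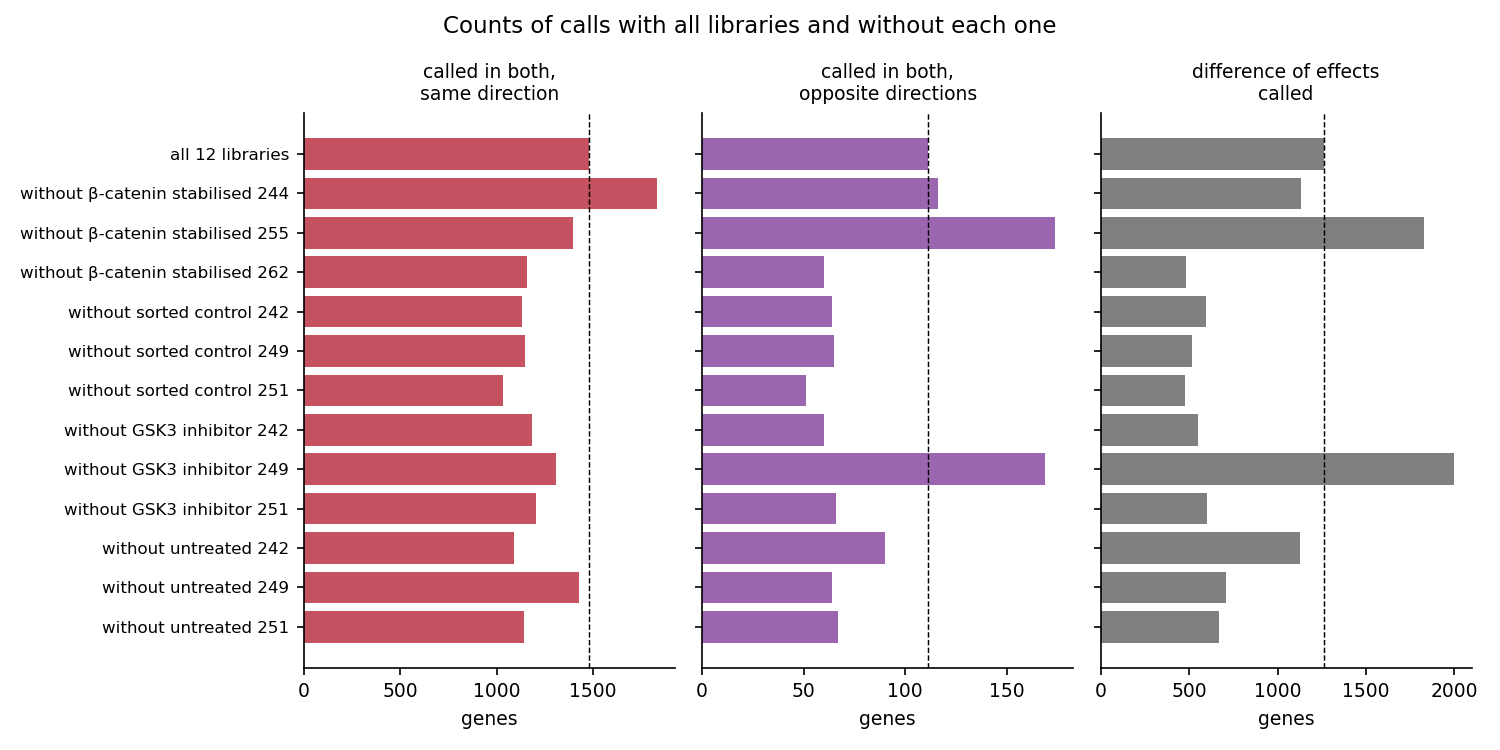
Number of genes (horizontal axes) called in both effects in the same direction, called in both in opposite directions, and called in the difference, with all 12 libraries (top bar, dashed line) and with each library left out in turn. Same-direction calls stay between 1035 and 1831, whereas calls of the difference run from 479 to 1997.

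TCF/LEF proteins bind DNA at words such as CTTTGAT, which reads ATCAAAG on the other strand. A variant that was searched as well is CTTTGAA, read as TTCAAAG on the other strand. Windows ran from 250 bases before to 50 after a gene's start in RefSeq (GRCm38.p6), and a gene counted when any of its windows held a word. Either word, on either strand, was present for 9.9% of the 27025 genes with a window, and for 7.2% of the 9208 tested genes matched to a window. The share was 8.7% of 462 shared higher genes and 5.3% of 607 shared lower genes. Among one-sided genetic genes the share was 8.6% of 210 higher and 10.1% of 89 lower genes. For one-sided drug genes it was 5.7% of 105 higher and 4.2% of 95 lower genes. All of these lie near the share over tested genes, and a match is a run of letters, not a shown binding site. For 3 genes that rose, 1 per pattern, the windows are printed 5′ to 3′ on the gene's strand because each holds 1 match, which is in capitals. Pim2 (chrX:7878056-7878355, plus strand) was higher in both effects. Bcl11b (chr12:108003365-108003664, minus strand) was one-sided genetic and Sp9 (chr2:73271676-73271975, plus strand) one-sided drug.
Pim2: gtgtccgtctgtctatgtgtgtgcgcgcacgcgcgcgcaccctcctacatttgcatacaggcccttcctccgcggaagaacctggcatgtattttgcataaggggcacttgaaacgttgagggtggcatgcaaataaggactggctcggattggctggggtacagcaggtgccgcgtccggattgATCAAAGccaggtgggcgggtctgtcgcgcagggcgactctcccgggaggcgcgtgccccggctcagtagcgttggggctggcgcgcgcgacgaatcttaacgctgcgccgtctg
Bcl11b: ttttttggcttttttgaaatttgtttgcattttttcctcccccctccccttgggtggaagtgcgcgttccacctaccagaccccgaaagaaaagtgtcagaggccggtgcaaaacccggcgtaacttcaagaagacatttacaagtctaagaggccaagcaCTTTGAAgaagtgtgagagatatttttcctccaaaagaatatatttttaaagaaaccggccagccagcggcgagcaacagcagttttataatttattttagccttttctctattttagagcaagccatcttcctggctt
Sp9: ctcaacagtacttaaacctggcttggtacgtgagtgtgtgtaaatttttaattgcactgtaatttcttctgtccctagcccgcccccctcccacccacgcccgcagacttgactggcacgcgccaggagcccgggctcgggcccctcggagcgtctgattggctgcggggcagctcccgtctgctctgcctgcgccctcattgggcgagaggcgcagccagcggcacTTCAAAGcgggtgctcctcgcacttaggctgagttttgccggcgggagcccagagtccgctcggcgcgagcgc

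Axin2 and Nkd1, feedback inhibitors of the WNT pathway, rose under both manipulations. Axin2 (ENSMUSG00000000142, chromosome 11, 108920349 to 108950783 of GRCm38), a scaffold of the destruction complex and a standard readout of β-catenin activity, had 18.7, 54 and 36.7 FPKM in β-catenin stabilised cells, against 3.6, 6.98 and 4.77 FPKM in sorted controls. It had 71.9, 46.6 and 53 FPKM with inhibitor, against 2.92, 2.48 and 2.95 FPKM without. No library of either manipulation overlapped its control group. Its genetic log2FC was 2.53 ± 0.34 (SE) with adjusted p = 0.000525 (limma), and its drug log2FC 3.92 ± 0.34 with adjusted p = 5.3e-05. The difference was not called (log2FC −1.39 ± 0.48, 95% interval −2.45 to −0.34, adjusted p = 0.0928), except without β-catenin library 255 (adjusted p = 0.0266).

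Nkd1, which binds Dishevelled and dampens WNT signals, had 8.83, 72.5 and 40.9 FPKM in β-catenin stabilised cells, against 2.25, 1.11 and 1.2 FPKM in sorted controls. With inhibitor it stood at 144, 94.3 and 127 FPKM, against 1.54, 1.27 and 1.24 FPKM in untreated cells. Library 244 was the lowest of its group in both genes, yet above all controls. The log2FC of Nkd1 was 3.65 ± 0.57 in the genetic effect (adjusted p = 0.00114) and 5.69 ± 0.57 in the drug effect (adjusted p = 0.000118). Its difference was not called (adjusted p = 0.137) except without library 255 (0.0309), and without library 244 and both unsorted libraries 249 (0.0475).

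Of 25 genes on a list of WNT targets and feedback genes, 20 were tested, of which 10 were called higher and 3 lower in the genetic effect, and 10 higher and 2 lower in the drug effect. Called higher in both were Axin2, Nkd1, Znrf3, Sp5, Apcdd1, Tcf7 and Cd44, which makes 7 genes, and Lgr5 and Myc were called lower in both. The count of 7 was 6 or 7 under every alternative. Over all tested genes, 17.6% were called higher and 17.1% lower in the genetic effect. In the drug effect those shares were 9.26% and 11.3%, and 4.48% were higher and 6.18% lower in both. Znrf3, a ubiquitin ligase that removes WNT receptors, averaged 13.6 ± 5.91 FPKM in β-catenin stabilised cells and 2.93 ± 0.22 FPKM in sorted controls. It averaged 17.3 ± 3.82 FPKM with inhibitor and 1.87 ± 0.36 FPKM without (SD, n = 3 each). Sp5, a transcription factor that follows β-catenin in many tissues, averaged 1.75 ± 0.49 FPKM in β-catenin stabilised and 5.63 ± 2.04 FPKM in inhibitor libraries, and was at 0 in all 6 control libraries. Apcdd1, a membrane inhibitor of WNT ligands, had 8.21, 71.9 and 39 FPKM in β-catenin stabilised cells and 0.163, 0.0205 and 0.361 FPKM in sorted controls. It had 29.5, 24.9 and 21.2 FPKM with inhibitor and 0.252, 0.0599 and 0.229 FPKM without. The groups of Apcdd1 did not overlap, but with voom on the recovered fragments its calls were lost (adjusted p = 0.055 genetic and 0.0809 drug). The adhesion receptor Cd44 was close to equal in size, with a log2FC of 1.21 ± 0.29 in the genetic and 1.20 ± 0.29 in the drug effect (adjusted p = 0.0103 and 0.0156, limma), and its drug call was lost without inhibitor 251 (0.0544) or untreated 242 or 251 (0.0617 and 0.0551).

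The other members of this list did not move together. Rnf43, the close relative of Znrf3, averaged 20.3 ± 10.8 FPKM in β-catenin stabilised cells and 0.11 ± 0.09 FPKM in sorted controls, against 1.49 ± 1.65 FPKM with inhibitor and 1.996 ± 2.80 FPKM without (genetic log2FC 4.13, drug log2FC −0.07, difference adjusted p = 0.0209). That difference was lost without β-catenin 262, any sorted control, or inhibitor 242 or 251, and with voom, with adjusted p up to 0.107. Notum, a secreted enzyme that inactivates WNT ligands, averaged 1.72 ± 0.75 FPKM in β-catenin stabilised cells and 0.0565 ± 0.0872 FPKM in sorted controls, and 0.148 ± 0.0847 FPKM with inhibitor and 0.0646 ± 0.0674 FPKM without. It was one-sided genetic, with unsorted libraries so near 0 FPKM that the interval of the drug effect was narrow in any case. Its difference (adjusted p = 0.0343) was lost in 13 alternatives, with adjusted p up to 0.171. Notum passed the filter only through the β-catenin stabilised libraries, and was too low to be tested without any 1 of them. Nkd2, a relative of Nkd1, was called in the drug effect, with 11.5 ± 4.30 FPKM with inhibitor and 1.59 ± 0.66 FPKM without, and not in the genetic effect (log2FC 0.03), and its drug call was lost in 11 alternatives (adjusted p up to 0.145). Tnfrsf19, a receptor of the TNF family, averaged 4.84 ± 2.76 FPKM in β-catenin stabilised cells and 9.59 ± 3.12 FPKM in sorted controls, against 31.1 ± 7.89 FPKM with inhibitor and 7.19 ± 1.81 FPKM without. Its difference was called in every alternative (log2FC −2.92 ± 0.54, adjusted p = 0.0126). Lef1, a DNA-binding partner of β-catenin, and the cyclin gene Ccnd1 were called in neither effect. Lef1 had 7.55, 64.2 and 44.7 FPKM in β-catenin stabilised cells and 76.5, 73.2 and 68.9 FPKM in sorted controls, and was called lower there without library 255 (adjusted p = 0.0259). Of 16 tested genes of the destruction complex, 2 were called higher and 3 lower in the genetic effect, near the 17.6% and 17.1% of all tested genes, and 1 was called higher in the drug effect, where 9.26% of all genes were. The 3 lower calls were 0 without β-catenin 262 or sorted control 242 and 1 without sorted control 249 or 251. Of the WNT list, the 3 lower genetic calls were 1 without β-catenin 262 or sorted control 242 or 251.

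**Figure D3:**
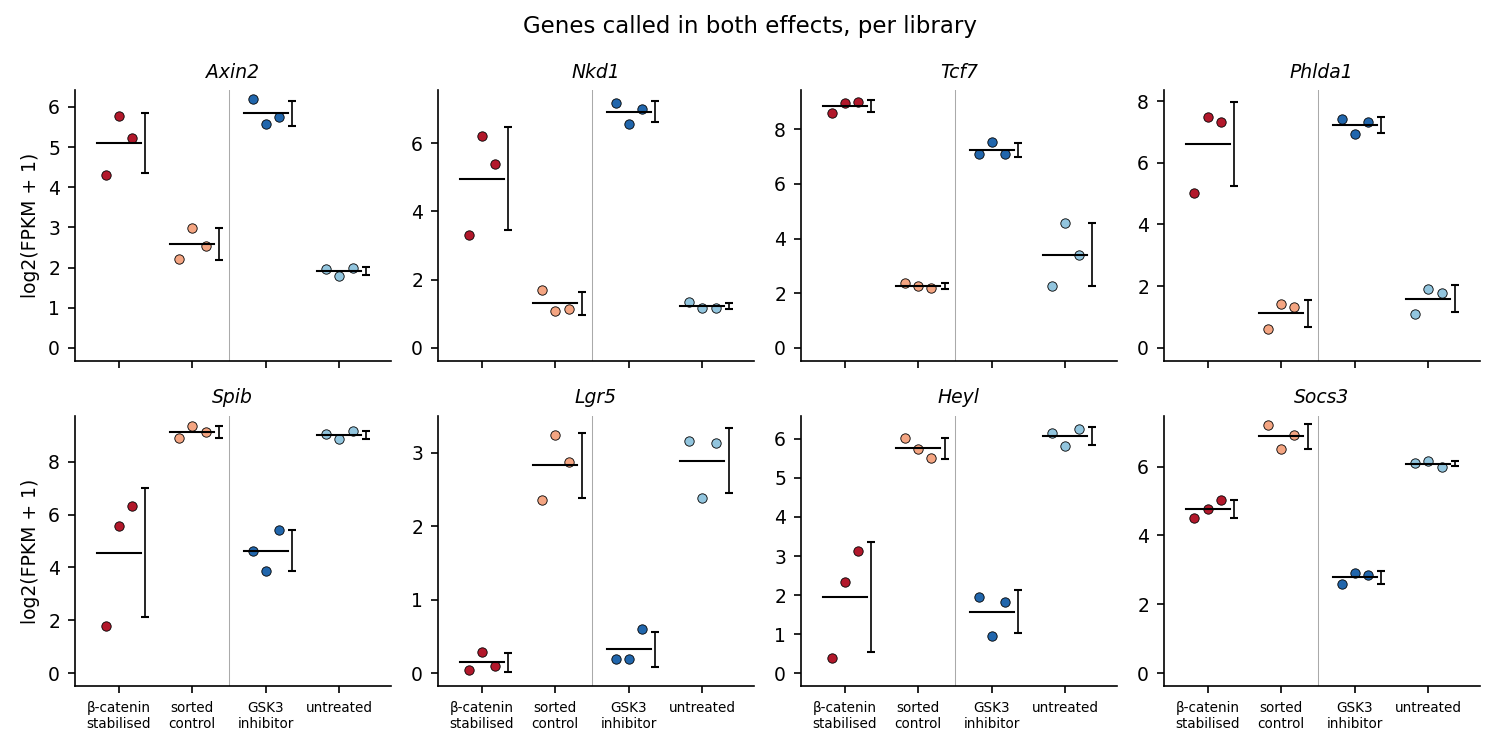
Level of 8 genes called in the same direction in both effects, as log2(FPKM + 1) on the vertical axes, with 1 point per library, the group mean as a line and the SD as a bar (n = 3). Axin2, Nkd1, Tcf7 and Phlda1 are high and Spib, Lgr5, Heyl and Socs3 low in both β-catenin stabilised and inhibitor libraries, with no overlap with the controls.

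Some of the strongest shared rises were in genes outside that list. Phlda1, a small protein of the pleckstrin homology family, had 31.5, 177 and 158 FPKM in β-catenin stabilised cells, against 0.54, 1.66 and 1.52 FPKM in sorted controls. It had 169, 120 and 159 FPKM with inhibitor, against 1.12, 2.73 and 2.46 FPKM without. The groups were far apart in both comparisons, with a log2FC of 5.48 ± 0.55 in the genetic and 5.63 ± 0.55 in the drug effect (adjusted p = 0.000132 and 0.000105, limma). Zcchc14, which encodes a zinc finger protein, averaged 56.2 ± 38.7 FPKM in β-catenin stabilised cells and 0.195 ± 0.103 FPKM in sorted controls, and 44.7 ± 8.86 FPKM with inhibitor and 0.153 ± 0.0852 FPKM without (SD, n = 3 each). It overlaps Map1lc3b, and whether strand was used in counting is not given. Aldh1a3, an enzyme that makes retinoic acid, averaged 36.3 ± 27.2 FPKM in β-catenin stabilised cells and 0.105 ± 0.00596 FPKM in sorted controls. With inhibitor it averaged 51.8 ± 15.4 FPKM, against 0.142 ± 0.126 FPKM in untreated cells. Both effects of these 3 genes were called in every alternative.

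The survival genes Pim2 and Bcl2 and the cell cycle gene Cdk6 were among the shared rises too. Pim2, a pro-survival kinase whose promoter is printed above, had 169, 409 and 346 FPKM in β-catenin stabilised cells, against 20.6, 24.2 and 22.1 FPKM in sorted controls. It had 185, 145 and 137 FPKM with inhibitor, against 28.9, 50.6 and 30.6 FPKM without. Its log2FC was 3.64 ± 0.31 in the genetic effect (adjusted p = 6.14e-05) and 2.09 ± 0.31 in the drug effect (adjusted p = 0.00107). The difference of 1.55 ± 0.43 was not called with all libraries (adjusted p = 0.0513) and was called without library 244 (0.00597) and with the replicate block (0.0401). Bcl2, which protects cells from apoptosis, averaged 62.4 ± 7.05 FPKM in β-catenin stabilised cells and 13.2 ± 3.7 FPKM in sorted controls, and 25.8 ± 4.61 FPKM with inhibitor and 8.9 ± 3.18 FPKM without. Cdk6, a partner kinase of the D cyclins, averaged 120 ± 46.1 FPKM in β-catenin stabilised cells and 24 ± 3.34 FPKM in sorted controls, and 113 ± 15 FPKM with inhibitor and 28 ± 4.78 FPKM without. Both effects of Bcl2 and Cdk6 held in every alternative. Of 12 tested genes on a list of D cyclins and CDK inhibitors, 1 was called higher and 3 lower in both effects. Pim2 and Bcl2 sit on a list of 18 genes of IL7 receptor and STAT5 signalling, all tested, of which 4 were called higher and 3 lower in both effects. Among all tested genes, 4.48% were higher and 6.18% lower in both. The transcription factors Stat5a and Stat5b were the other 2 higher genes, with genetic log2FC of 1.39 and 1.06 and drug log2FC of 1.43 and 0.88. The feedback gene Socs3, Cish (an inhibitor of the same family) and Pim1 were the 3 lower ones. The calls of Cish were lost in some alternatives, with adjusted p up to 0.0692 in the genetic and 0.0687 in the drug effect.

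Equal rises were seen in genes of varied function. Acot11, a thioesterase that splits fatty acyl-CoA, had 42.7, 36.1 and 37 FPKM in β-catenin stabilised cells, against 2.56, 2.57 and 1.75 FPKM in sorted controls. It had 47.5, 42.7 and 40.5 FPKM with inhibitor, against 2.8, 5.27 and 2 FPKM without. The log2FC was 3.59 ± 0.23 in the genetic and 3.42 ± 0.23 in the drug effect, and the 95% interval of the difference ran from −0.56 to 0.90. Spint2 (a membrane inhibitor of serine proteases), Fmnl3 (a formin that shapes actin), Abhd2 (a lipase), Ankrd50 (an ankyrin repeat protein) and Prr5 (a component of the mTORC2 kinase complex) had genetic log2FC between 1.996 and 2.44 and drug log2FC between 2.14 and 2.54. These 5 genes held both calls in every alternative, and so did Acot11. Library 244 was the highest of its group for Acot11 and the lowest for the other 5. The difference of Spint2 was called without both unsorted libraries 249 (log2FC −0.64, adjusted p = 0.033).

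The genes lower in both effects included many of the B lineage. Spib (ENSMUSG00000008193, chromosome 7, 44525993 to 44532071), an ETS family transcription factor of B cells, had 2.45, 46 and 80 FPKM in β-catenin stabilised cells, against 481, 655 and 552 FPKM in sorted controls. It had 23.7, 13.5 and 41.9 FPKM with inhibitor, against 524, 461 and 570 FPKM without. Every library of either manipulation was below every control, and library 244 was the lowest of all. The log2FC was −4.57 ± 0.92 in the genetic effect (adjusted p = 0.00442) and −4.38 ± 0.92 in the drug effect (adjusted p = 0.00778). Cd22, an inhibitory co-receptor of the B cell receptor, averaged 1.28 ± 1.08 FPKM in β-catenin stabilised cells and 61.8 ± 28.4 FPKM in sorted controls. In the unsorted cells it averaged 1.35 ± 1.33 FPKM with inhibitor and 15.1 ± 5.79 FPKM without. Irf8, a transcription factor of B and myeloid cells, had effects of nearly equal size, with 91.0 ± 7.05 FPKM in β-catenin stabilised cells and 306 ± 14.7 FPKM in sorted controls, and 99.8 ± 17.1 FPKM with inhibitor and 414 ± 34.8 FPKM without (genetic log2FC −1.74 ± 0.12, drug log2FC −2.05 ± 0.12, adjusted p = 2.02e-05 and 1.16e-05). Calls of Spib, Cd22 and Irf8 held in every alternative. In bulk RNA, fewer cells of a type and less RNA per cell cannot be told apart. The summed B cell precursor markers were 601 to 2407 FPKM in β-catenin stabilised cells and 6153 to 6484 FPKM in sorted controls. They were 2142 to 3133 FPKM with inhibitor and 6242 to 8174 FPKM without. Of the 12 markers, 8 were called lower and 1 higher in the genetic effect, and 2 lower in the drug effect. Only 1 was called lower in both. Over all tested genes, 17.1% were called lower and 17.6% higher in the genetic effect, and 11.3% lower in the drug effect. The part of these markers in the results was not tested.

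Of 24 B lineage transcription factors, all tested, 14 were called lower and 5 higher in the genetic effect, and 8 lower and 4 higher in the drug effect. Called lower in both were 8, and the log2FC medians of all 24 were −1.17 (genetic) and −0.53 (drug), against −0.01 and −0.03 over all tested genes. Calls over all tested genes were 17.6% higher and 17.1% lower in the genetic effect, and 9.26% and 11.3% in the drug effect. The share lower in both was 6.18%. The 5 genetic rises lie near the share over all genes. Bcl11a, needed at the start of the B lineage, averaged 9.52 ± 7.24 FPKM in β-catenin stabilised cells and 79.3 ± 12.3 FPKM in sorted controls, and 4.42 ± 1.38 FPKM with inhibitor and 53.2 ± 10.7 FPKM without. Id3, an inhibitor of E proteins, had a genetic log2FC of −2.59 ± 0.46 and a drug log2FC of −2.82 ± 0.46. Both genes kept both calls in every alternative. Foxo1, Ikzf3, Myb and Runx1 were called in neither effect. The 8 genes lower in both, and the 8 lower in the drug effect, were 5 without sorted control 249 or 251, inhibitor 249 or 251 or untreated 251, and at most 12. The 5 genetic rises were 3 without β-catenin 255 or 262 or sorted control 249 or 251, and the 4 drug rises 2 without inhibitor 251 or untreated 242.

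Of 23 tested genes of pre-BCR and BCR signalling, 16 were called lower and 1 higher in the genetic effect, and 7 lower and 1 higher in the drug effect, with 6 lower in both. Library 244 entered this count through the spread that all groups share. Without it, 16 genes were called lower with inhibitor and 14 were lower in both, and without inhibitor library 242 only 3 were lower in both. The 7 drug calls were 3 without inhibitor 242 and 4 without inhibitor 251 or untreated 242 or 251. For all tested genes, lower calls were 17.1% in the genetic effect, 11.3% in the drug effect and 6.18% in both. Higher calls were 17.6% and 9.26%. Pax5, the factor that commits cells to the B lineage, had 4.87, 142 and 100 FPKM in β-catenin stabilised cells, against 469, 614 and 547 FPKM in sorted controls. It had 113, 73.2 and 116 FPKM with inhibitor, against 477, 433 and 744 FPKM without. These groups did not overlap either, but the drug effect of Pax5 (log2FC −2.43 ± 0.93) missed the threshold with all libraries (adjusted p = 0.0935) and passed without library 244 (7.46e-05). The surrogate light chain gene Igll1 behaved alike, with 101, 114 and 90.3 FPKM with inhibitor and 1331, 1044 and 1188 FPKM without, and a drug adjusted p of 0.0694 with all libraries and 2.3e-06 without library 244 (0.0427 with the replicate block). Its genetic call (log2FC −3.89 ± 1.24, adjusted p = 0.0332) was lost without each sorted control (0.0862, 0.0727 and 0.0839), without a filter (0.0715) and in separate fits (0.113).

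Lgr5 (ENSMUSG00000020140, chromosome 10, 115450311 to 115587780), a receptor for R-spondins and a β-catenin target in gut stem cells, was lower under both manipulations. It had 0.0353, 0.225 and 0.0745 FPKM in β-catenin stabilised cells, against 4.13, 8.5 and 6.35 FPKM in sorted controls. With inhibitor it had 0.138, 0.142 and 0.518 FPKM, against 7.96, 4.2 and 7.78 FPKM in untreated cells. The groups did not overlap, and the effects were equal by the interval (genetic log2FC −2.68 ± 0.28, adjusted p = 0.000142, drug log2FC −2.57 ± 0.28, adjusted p = 0.000171, interval of the difference −0.98 to 0.75). Libraries of both manipulations were below 1 FPKM, where log2(FPKM + 1) limits any fall. The log2FC of Lgr5 thus mainly follow the control levels, and whether its falls were equal in fold is not resolved. Heyl, a repressor known as a Notch target, had 0.3, 4.04 and 7.82 FPKM in β-catenin stabilised cells, against 64.2, 52.5 and 44.2 FPKM in sorted controls. It had 2.87, 0.927 and 2.54 FPKM with inhibitor, against 70.1, 55.4 and 74.8 FPKM without. The log2FC of Heyl was −3.80 ± 0.57 in the genetic and −4.50 ± 0.57 in the drug effect (adjusted p = 0.000918 and 0.000445). Bcl9, a co-activator that binds β-catenin, was lower by similar amounts, with a genetic log2FC of −1.22 ± 0.18 and a drug log2FC of −1.04 ± 0.18. These genes kept both calls in every alternative. Pag1, an adaptor that recruits the kinase CSK, and Bcl7a, a subunit of chromatin remodelling complexes, were equal and lower as well, with log2FC of −1.82 and −2.56 in the genetic and −1.97 and −2.43 in the drug effect.

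Myc and Ccnd3 were lower in both effects. Myc (ENSMUSG00000022346, chromosome 15, 61985391 to 61990374), a driver of growth and in other tissues a β-catenin target, had 92.3, 50.3 and 56.1 FPKM in β-catenin stabilised cells, against 163, 96.2 and 146 FPKM in sorted controls. It had 12.6, 12.8 and 9.88 FPKM with inhibitor, against 88.5, 58.8 and 48.1 FPKM without. The groups did not overlap, although the highest β-catenin library (92.3 FPKM) came close to the lowest control (96.2 FPKM). The genetic log2FC was −1.03 ± 0.28 (adjusted p = 0.0183) and the drug log2FC −2.33 ± 0.28 (adjusted p = 0.00037). The genetic call was lost without β-catenin 255 or 262 (adjusted p = 0.055 and 0.0627) and without sorted control 242 or 251 (0.071 and 0.0665). The difference of 1.30 ± 0.40 was not called (adjusted p = 0.0706), except without library 255 (0.046). Ccnd3, the D cyclin on which B cell precursors depend, averaged 278 ± 123 FPKM in β-catenin stabilised cells and 1119 ± 114 FPKM in sorted controls, and 201 ± 60.4 FPKM with inhibitor and 1322 ± 178 FPKM without (genetic log2FC −2.13 ± 0.34, drug log2FC −2.74 ± 0.34). Ccnd3 overlaps Bysl, and strand handling is not given. Both calls of Ccnd3 held in every alternative, and its difference was called without library 244 (1.07, adjusted p = 0.0475).

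Replication and ribosome genes fell by smaller amounts. Over all tested genes, 17.1% were called lower in the genetic and 11.3% in the drug effect. Of 30 genes of DNA replication and the G1/S transition, 19 were called lower in the genetic and 17 in the drug effect, 15 in both, and 1 was higher in the drug effect. Mcm7, a subunit of the replicative helicase, averaged 283 ± 45.4 FPKM in β-catenin stabilised cells and 418 ± 8.27 FPKM in sorted controls, and 187 ± 22.3 FPKM with inhibitor and 394 ± 57.7 FPKM without. Ccne2, a cyclin of S phase entry, had a genetic log2FC of −0.80 ± 0.18 and a drug log2FC of −1.17 ± 0.18. Of 30 genes of ribosome biogenesis, 22 were called lower in the genetic and 13 in the drug effect, and all 13 were lower in both. Utp15 was called higher in the drug effect, and the difference was called for 2 genes (Nop2 and Utp15, named after their values were seen). Npm1, a nucleolar chaperone, averaged 599 ± 60.2 FPKM in β-catenin stabilised cells and 965 ± 60 FPKM in sorted controls, and 432 ± 3.72 FPKM with inhibitor and 789 ± 112 FPKM without. Mcm7 overlaps Cops6 and Ap4m1, and Ccne2 overlaps Ints8. Mcm7, Ccne2 and Npm1 kept both calls in every alternative and had equal effects by the interval. The difference of Mcm7 was not called with all libraries, but its adjusted p fell to 0.0234 among the alternatives. The 15 replication genes were 9 without sorted control 251, and the 19 genetic calls were 12 without β-catenin 244 or 262 or sorted control 242 and 10 without sorted control 251. The 17 drug calls were 11 without untreated 242 or 251. The 13 ribosome genes were 8 without inhibitor 249 and 7 without untreated 242, and 8 after median centring. Of 25 genes of mitosis and G2/M, 9 were called lower in the genetic effect, none was called lower in the drug effect in any alternative, and the difference was called for 1. The 9 ranged from 1 without sorted control 249 to 16 without β-catenin 255, and were 3 without β-catenin 244 or 262 or sorted control 251 and 15 without inhibitor 249. Genes with a called difference numbered 8 without β-catenin 255 and 11 without inhibitor 249, and 0 without β-catenin 244 or 262, any sorted control, inhibitor 242 or 251 or untreated 249 or 251.

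Some shared genes changed by unequal amounts. Tcf7 (ENSMUSG00000000782, chromosome 11, 52252371 to 52283014), which encodes TCF-1, had 387, 497 and 508 FPKM in β-catenin stabilised cells, against 4.18, 3.78 and 3.52 FPKM in sorted controls. It had 136, 186 and 136 FPKM with inhibitor, against 3.78, 22.5 and 9.63 FPKM without. All groups were apart, with the β-catenin stabilised libraries highest. The log2FC was 6.58 ± 0.44 in the genetic effect (adjusted p = 1.8e-05) and 3.84 ± 0.44 in the drug effect (adjusted p = 0.000231), and both calls held in every alternative. Their difference of 2.74 ± 0.62 was called (adjusted p = 0.0241), but was lost without β-catenin 262 (0.0635), each sorted control (0.0539, 0.0591 and 0.0648), inhibitor 242 or 251 (0.0615 and 0.0626) or untreated 251 (0.0547), without a filter (0.0538) and with voom (0.0515).

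Zap70, a kinase of T and NK cell receptors, had 54.3, 62.6 and 61.6 FPKM in β-catenin stabilised cells, against 0.849, 1.41 and 1.14 FPKM in sorted controls. It had 51.5, 45.4 and 57.8 FPKM with inhibitor, against 4.11, 6.47 and 8.15 FPKM without. The ranges under both manipulations overlapped, whereas all untreated libraries stood above all sorted controls. The log2FC was 4.83 ± 0.20 in the genetic and 2.89 ± 0.20 in the drug effect, and the difference of 1.94 ± 0.28 (adjusted p = 0.00408) was called in every alternative. Socs3, a feedback inhibitor of JAK and STAT signalling, had 21.9, 26.5 and 31.9 FPKM in β-catenin stabilised cells, against 148, 89.6 and 120 FPKM in sorted controls. It had 4.97, 6.55 and 6.28 FPKM with inhibitor, against 68, 70.3 and 62.7 FPKM without. Its drug effect was the larger (log2FC −3.30 ± 0.19, genetic −2.10 ± 0.19), with a difference of 1.20 ± 0.26 (adjusted p = 0.0227) that was lost without β-catenin 262 (0.0594), sorted control 251 (0.0577), inhibitor 242 (0.0588) or untreated 249 (0.0524), and with voom (0.0588). Pim1, a kinase gene driven by STAT5, averaged 137 ± 28.5 FPKM in β-catenin stabilised cells and 265 ± 8.84 FPKM in sorted controls, and 46.9 ± 7.12 FPKM with inhibitor and 227 ± 15.7 FPKM without. The difference of Pim1 (log2FC 1.30 ± 0.21, adjusted p = 0.00719) was called in every alternative. Cdkn2a, an inhibitor of the cell cycle, was lower in both effects by similar log2FC (−1.21 ± 0.26 and −1.44 ± 0.26), but its control groups stood far apart, with 10.5 ± 2.18 FPKM in sorted controls and 67.3 ± 3.48 FPKM in untreated cells.

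One-sided genetic genes that rose included T cell genes. Bcl11b (ENSMUSG00000048251, chromosome 12, 107910403 to 108003602), which commits cells to the T lineage, had 7.68, 5.07 and 5.89 FPKM in β-catenin stabilised cells, against 0.0492, 0.08 and 0.0417 FPKM in sorted controls. It had 0.12, 0.502 and 0 FPKM with inhibitor, against 0.0105, 0.659 and 0.333 FPKM without. The inhibitor and untreated libraries overlapped below 1 FPKM, where log2(FPKM + 1) leaves little room for a 2-fold change. The genetic log2FC was 2.76 ± 0.24 (adjusted p = 6.73e-05), the drug log2FC −0.14 ± 0.24 (95% interval −0.66 to 0.39) and the difference 2.89 ± 0.34 (adjusted p = 0.00146). With voom the difference was not called (adjusted p = 0.0814), and without any 1 β-catenin library Bcl11b was too low to be tested. Prss16, a protease of the thymus, had 31.9, 21 and 23.4 FPKM in β-catenin stabilised cells, against 2.02, 2.17 and 2.51 FPKM in sorted controls. It had 2.31, 2.01 and 2.84 FPKM with inhibitor, against 2.84, 3.31 and 3.2 FPKM without. Its difference (3.30 ± 0.24, adjusted p = 0.000145) was called in every alternative. Runx3, a transcription factor of cytotoxic lymphocytes, averaged 206 ± 5.40 FPKM in β-catenin stabilised cells and 51.6 ± 3.33 FPKM in sorted controls, and 52.9 ± 13.1 FPKM with inhibitor and 52.4 ± 12.5 FPKM without. Its difference of 1.97 ± 0.26 (adjusted p = 0.00278) was also called in every alternative. Cd163l1, a scavenger receptor that γδ T cells express, had a genetic log2FC of 4.83 ± 0.23 and a drug log2FC of 0.22 ± 0.23, and its difference was called in every alternative.

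For other lymphoid genes the drug effect was too variable to place within 2-fold, while the difference itself was called. Gata3, a regulator of T cells and ILC, had 39.5, 15.8 and 26 FPKM in β-catenin stabilised cells, against 0.132, 0.42 and 0.0342 FPKM in sorted controls. It had 1.75, 8.22 and 3.44 FPKM with inhibitor, against 1.75, 8.03 and 4.87 FPKM without. Both unsorted libraries numbered 249 were the highest of their groups, and the difference was 4.60 ± 0.73 (adjusted p = 0.00641). Il2rb, a receptor chain for IL2 and IL15, averaged 427 ± 307 FPKM in β-catenin stabilised cells and 6.29 ± 3.67 FPKM in sorted controls, and 7.16 ± 8.8 FPKM with inhibitor and 19.6 ± 20.7 FPKM without. Its difference was 7.09 ± 1.25 (adjusted p = 0.0103). Differences of Gata3 and Il2rb were called in every alternative. Gzma, a granule protease of cytotoxic cells, had 342, 161 and 231 FPKM in β-catenin stabilised cells and at most 1.53 FPKM elsewhere, but its difference of 6.46 ± 0.46 (adjusted p = 0.000144) was not called with voom (0.201).

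Markers of other lymphocytes rose in the genetic effect as well, and Il2rb and Gzma are themselves among the NK and ILC markers counted here. For scale, 17.6% of all tested genes were called higher in the genetic and 9.26% in the drug effect. Of 15 tested NK and ILC markers, 15 were called higher in the genetic effect and none in the drug effect, where 1 was called lower, and the difference was called for 12. The difference was called for 2 with voom. Their summed FPKM was 4979, 1269 and 2287 in β-catenin stabilised cells, highest in library 244, and 33.3 to 68.4 in sorted controls. It was 61.5, 871 and 107 with inhibitor and 50.3, 731 and 113 without, highest in both libraries 249. Klra8, a receptor found on a subset of NK cells in some strains, was at 0 in all 9 libraries other than β-catenin stabilised. Such a gene can pass the filter only through the β-catenin stabilised libraries. Eomes, also on this list, passed the filter only through the β-catenin stabilised libraries, so its genetic rise was favoured by the filter. Members of this kind favour the count of 15 over the share of all tested genes, and their number was not determined. Of 10 tested T cell markers, 8 were called higher in the genetic effect and 4 in the drug effect, 3 of them in both (Cd8b1, Zap70 and Cd28). Summed T cell markers were 697 to 1153 FPKM in β-catenin stabilised cells and 108 to 124 FPKM in sorted controls, and 383 to 532 FPKM with inhibitor and 227 to 264 FPKM without. Cd8b1, a chain of the T cell co-receptor CD8, had 28.4, 41.6 and 61.3 FPKM in β-catenin stabilised cells, against 0, 0.0162 and 0.0422 FPKM in sorted controls. With inhibitor it had 19.3, 25.7 and 25 FPKM, against 0.191, 1.67 and 0.0362 FPKM in untreated cells. Both of its calls held in every alternative (log2FC 5.39 ± 0.35 and 4.02 ± 0.35). The part of other lymphocytes in these results was not tested.

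One-sided genetic genes that fell included Fcgr2b, the inhibitory Fc receptor of B cells. It had 4.98, 7.2 and 6.19 FPKM in β-catenin stabilised cells, against 32.5, 53.5 and 41.9 FPKM in sorted controls. It had 46.2, 82.9 and 58.3 FPKM with inhibitor, against 39.3, 49.3 and 61.3 FPKM without, and these ranges overlapped. Its genetic log2FC was −2.60 ± 0.25 (adjusted p = 0.000105), its drug log2FC 0.30 ± 0.25 (95% interval −0.25 to 0.85) and its difference −2.90 ± 0.35 (adjusted p = 0.0019). Sgce, a membrane protein of the sarcoglycan family, had a genetic log2FC of −1.86 ± 0.17 and a drug log2FC of 0.23 ± 0.17, and the differences of both genes were called in every alternative. For some genes of this kind the unsorted cells had little to lose. Tead1, a transcription factor of the Hippo pathway, averaged 0.118 ± 0.0806 FPKM in β-catenin stabilised cells and 9.43 ± 3.98 FPKM in sorted controls, but 0.719 ± 0.753 FPKM with inhibitor and 0.548 ± 0.341 FPKM without. Of the 126 one-sided genetic lower genes, 14 were at least 2-fold higher in sorted controls than in untreated cells, and 112 (88.9%) were within 2-fold on the log2(FPKM + 1) scale, against 93.7% of all tested genes. Both control groups enter the effects that define this class, so its share describes the class and tests nothing.

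The inhibitor had one-sided effects of its own. Npl (ENSMUSG00000042684, chromosome 1, 153503015 to 153550045), a lyase that degrades sialic acid, had 1.62, 1.53 and 1.56 FPKM in β-catenin stabilised cells, against 2.04, 1.56 and 2.42 FPKM in sorted controls. It had 42.5, 39 and 38.4 FPKM with inhibitor, against 1.26, 5.63 and 1.67 FPKM without. The sorted groups lay close together, while each inhibitor library was far above its untreated counterpart. The drug log2FC was 3.58 ± 0.33 (adjusted p = 7.46e-05), the genetic log2FC −0.22 ± 0.33 (95% interval −0.94 to 0.51) and the difference −3.80 ± 0.46 (adjusted p = 0.00192). Otud1, a deubiquitinase, averaged 5.45 ± 0.7 FPKM in β-catenin stabilised cells and 6.03 ± 1.73 FPKM in sorted controls, and 43.9 ± 11.5 FPKM with inhibitor and 5.54 ± 1.7 FPKM without. Sipa1l2, a GTPase-activating protein of the RAP pathway, had a drug log2FC of 2.20 ± 0.25 and a genetic log2FC of −0.28 ± 0.25. All 3 differences were called in every alternative. Lamp2, a membrane protein of lysosomes, averaged 50.5 ± 5.67 FPKM in β-catenin stabilised cells and 40.2 ± 0.704 FPKM in sorted controls, and 236 ± 20.6 FPKM with inhibitor and 48 ± 13.8 FPKM without. Over all tested genes, 17.6% were called higher and 17.1% lower in the genetic effect, and 9.26% and 11.3% in the drug effect. Of 25 tested genes of lysosomes and autophagy, 6 were called higher and 2 lower in each effect, 3 higher and 2 lower in both, and the 6 genetic rises were 3 without sorted control 251. Without both unsorted libraries 249, 10 were called higher in the genetic and 8 in the drug effect. The summed FPKM of this list was 1764, 7086 and 2099 with inhibitor and 1342, 2864 and 1474 without, highest in the libraries 249. Sp9, a transcription factor best known from developing brain and limb, had 0.00822, 0.00777 and 0.0462 FPKM in β-catenin stabilised cells and 0 in all sorted controls. It had 5.68, 5.1 and 9.2 FPKM with inhibitor, against 0, 0.0452 and 0 FPKM without. Its one-sided class rests on sorted libraries near 0 FPKM, where the interval of the genetic effect is narrow in any case. It overlaps Cir1, its difference was not called with voom (adjusted p = 0.0589), and it was too low to be tested without any 1 inhibitor library.

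Among one-sided drug genes that fell were transcription factors. Jund (ENSMUSG00000071076, chromosome 8, 70698949 to 70700616), a subunit of AP-1, had 133, 51.8 and 82.3 FPKM in β-catenin stabilised cells, against 87, 106 and 89.8 FPKM in sorted controls. It had 11.3, 20 and 14.4 FPKM with inhibitor, against 79.4, 80.7 and 90.4 FPKM without. The sorted groups overlapped and the unsorted groups were well apart. Its drug log2FC was −2.41 ± 0.29 (adjusted p = 0.000352), its genetic log2FC −0.18 ± 0.29 (95% interval −0.82 to 0.47) and its difference 2.23 ± 0.41 (adjusted p = 0.012). Frat1, a GSK3-binding protein that promotes β-catenin signalling, had 10.2, 6.34 and 6.86 FPKM in β-catenin stabilised cells, against 5.39, 6.97 and 5.03 FPKM in sorted controls. It had 0.898, 1.18 and 1.57 FPKM with inhibitor, against 6.32, 4.77 and 8.34 FPKM without. Its drug log2FC was −1.74 ± 0.23 and its difference 2.09 ± 0.32 (adjusted p = 0.00549). The differences of Jund and Frat1 were called in every alternative. Dusp2, a phosphatase of MAP kinases, averaged 90.8 ± 16 FPKM in β-catenin stabilised cells and 126 ± 22 FPKM in sorted controls, and 33.5 ± 9.72 FPKM with inhibitor and 126 ± 18.6 FPKM without. Mnt and Mlxip, members of the MYC network, were one-sided drug and lower too, with drug log2FC of −0.56 and −0.94 and genetic log2FC of 0.11 and 0.02. The difference of Dusp2 was lost without β-catenin 262, sorted control 242 or 251 or untreated 251 (adjusted p up to 0.0595) and that of Mlxip without β-catenin 262 or sorted control 251 (up to 0.0546). That of Mnt was lost in 14 alternatives (up to 0.0944). Among all tested genes, 17.6% were called higher in the genetic and 11.3% lower in the drug effect, and 9.12% in the difference. Jund and Dusp2 belong to a list of 18 early response genes, in which 8 were called higher in the genetic effect and 3 lower in the drug effect, with a called difference for 4. Their summed FPKM was 1517, 307 and 542 in β-catenin stabilised cells and 364, 469.9 and 356 in sorted controls, so that library 244 was far above and library 255 below all sorted controls, and 7 were called higher without library 244. The 8 ranged from 3 to 10, with 3 without sorted control 242, 4 without sorted control 249 or 251 and 5 without β-catenin 262, inhibitor 242 or untreated 242 or 251, and the 4 from 1 without β-catenin 262, sorted control 242 or 251 or untreated 251, and 2 without sorted control 249, inhibitor 242 or 251 or untreated 242 or 249, to 9 without β-catenin 255.

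Opposite effects were few but clear for some genes. Pon3 (ENSMUSG00000029759, chromosome 6, 5220852 to 5256286), a lactonase, had 1.86, 5.52 and 1.84 FPKM in β-catenin stabilised cells, against 11.7, 9.91 and 10.4 FPKM in sorted controls. It had 87.5, 85.3 and 98.9 FPKM with inhibitor, against 8.48, 12.3 and 10.8 FPKM without. Both control groups lay at the same level, and the manipulated groups lay on either side. The genetic log2FC was −1.64 ± 0.28 (adjusted p = 0.00188), the drug log2FC 3.003 ± 0.279 (adjusted p = 7.94e-05) and the difference −4.64 ± 0.39 (adjusted p = 0.00035). Dennd2a, an exchange factor for RAB GTPases, had 0.261, 0.484 and 0.127 FPKM in β-catenin stabilised cells, against 4.81, 4.12 and 2.78 FPKM in sorted controls. It had 5.3, 6.71 and 6.22 FPKM with inhibitor, against 1.01, 2.14 and 0.647 FPKM without. Here the control groups differed, with sorted controls above untreated cells. Cacna1e, a calcium channel subunit, had a genetic log2FC of −1.48 ± 0.25 and a drug log2FC of 2.02 ± 0.25. Dmwd, a WD repeat protein, showed the reverse pattern, with 2.14, 3.1 and 4.31 FPKM in β-catenin stabilised cells, against 0.152, 0.403 and 0.372 FPKM in sorted controls. It had 0.225, 0.469 and 0.492 FPKM with inhibitor, against 1.81, 3 and 3.57 FPKM without. For Dmwd the untreated cells were at the level of the β-catenin stabilised cells and the inhibitor cells at that of the sorted controls. All 3 calls of Pon3, Dennd2a, Cacna1e and Dmwd held in every alternative.

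Other opposite genes rested on fewer libraries. Xcl1, a chemokine of NK and T cells, had 660, 105 and 257 FPKM in β-catenin stabilised cells, against 2.58, 7.54 and 4.91 FPKM in sorted controls. It had 0.0398, 2.26 and 0 FPKM with inhibitor, against 4.65, 37.2 and 7.18 FPKM without. Each inhibitor library was below the untreated library of its number, but the drug call (log2FC −3.01 ± 0.82, adjusted p = 0.0265) was lost without inhibitor 242 or 251 (0.0875 and 0.0865) or untreated 249 (0.075), without a filter (0.0602), in separate fits (0.0556) and with voom (0.278). With voom its difference was lost too (0.0995). Atf4, the central factor of the integrated stress response, averaged 146 ± 9.46 FPKM in β-catenin stabilised cells and 203 ± 7.91 FPKM in sorted controls, and 194.5 ± 16.1 FPKM with inhibitor and 149.6 ± 26.6 FPKM without. Its difference (log2FC −0.86 ± 0.17, adjusted p = 0.0143) was called in every alternative, while its drug call (adjusted p = 0.0415) was lost in 14 of them, with adjusted p up to 0.142. Calls over all tested genes were 17.1% lower and 17.6% higher in the genetic effect, and 9.26% higher and 11.3% lower in the drug effect. Of 22 tested genes of the integrated stress response, 7 were called lower and 5 higher in the genetic effect, and 7 higher and 2 lower in the drug effect, and the difference was called for 6, all below 0. Asns, which makes asparagine, had 5.78, 2.06 and 2.91 FPKM in β-catenin stabilised cells, against 28.8, 15.8 and 31.1 FPKM in sorted controls. With inhibitor it had 49.4, 43.3 and 24.2 FPKM, against 40.2, 16 and 11.6 FPKM in untreated cells. Its difference of −3.43 ± 0.67 (adjusted p = 0.0145) was called in every alternative. The 7 drug calls of that list were 4 without β-catenin 262, sorted control 242 or 251 or inhibitor 249, 3 without inhibitor 242 and 2 without untreated 251, and the 6 called differences were 3 without β-catenin 262 or inhibitor 242. The 5 genetic rises were 2 without β-catenin 262 or any sorted control and 3 without β-catenin 255 or untreated 242 or 251. Of the 35 genes lower with stabilised β-catenin and higher with inhibitor, 30 (85.7%) had both control groups within 2-fold of each other, and of the 76 with the reverse pattern 71 (93.4%) did. The other 5 of the 35 were higher in sorted controls, and the other 5 of the 76 in untreated cells. Sorted control minus untreated had a median log2 of 0.45 and −0.26, against −0.01 over all tested genes. Both control groups enter the effects that define these patterns, so these shares describe them and test nothing.

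**Figure D4:**
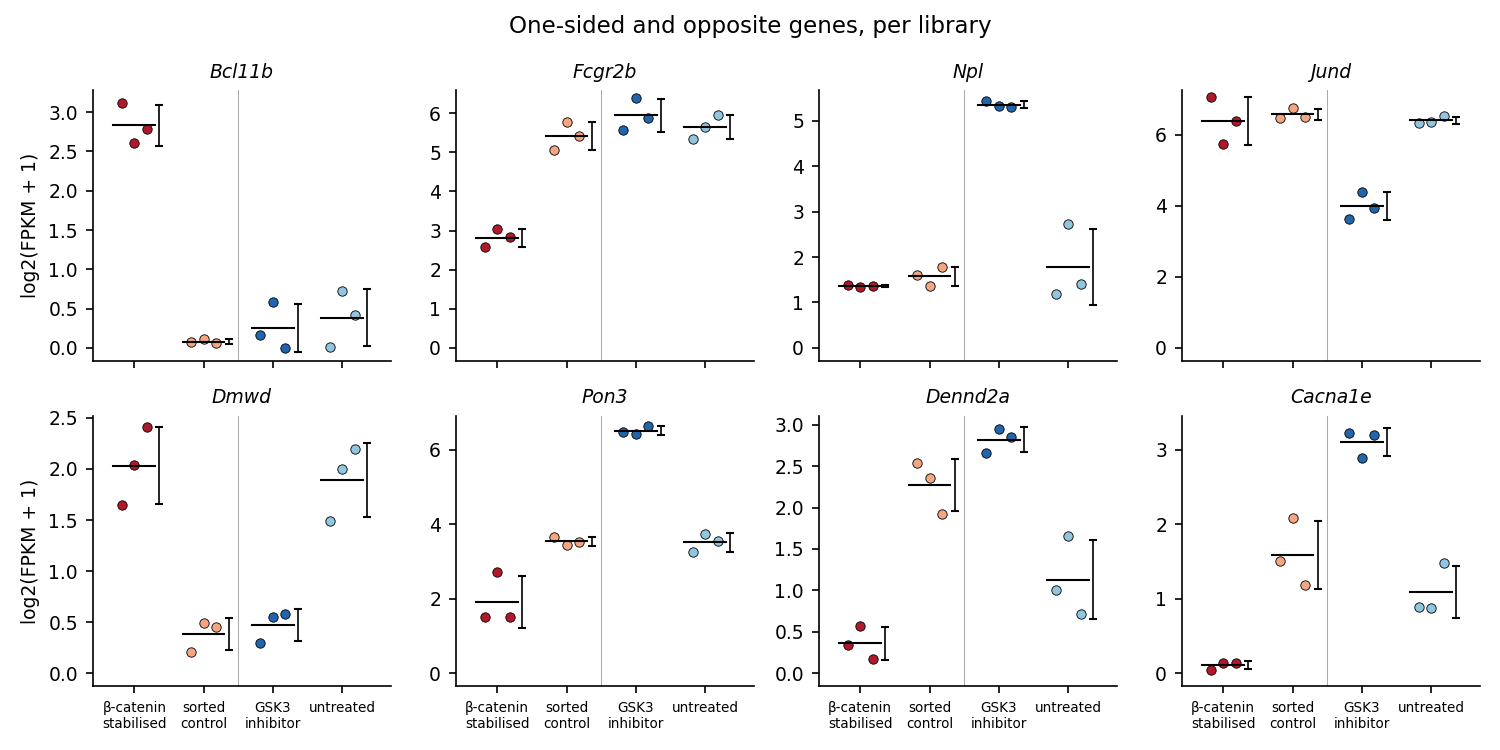
Level of 8 one-sided or opposite genes, as log2(FPKM + 1) on the vertical axes, with 1 point per library, the group mean as a line and the SD as a bar (n = 3). Bcl11b and Fcgr2b part from the control group in β-catenin stabilised libraries, Npl and Jund in inhibitor libraries, and Dmwd, Pon3, Dennd2a and Cacna1e move in opposite directions.

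Over 25 process lists, the medians of both effects shared a sign for the WNT, B lineage, pre-BCR, replication and ribosome lists, among others. They lay furthest apart for chemokines, Notch and early T factors, MHC class II presentation and early response genes. The chemokine medians still shared a sign, and those of the pre-BCR list (−2.94 genetic and −1.14 drug) also lay well apart. The counts below stand beside 17.6% higher and 17.1% lower calls over all tested genes in the genetic effect. In the drug effect those shares were 9.26% and 11.3%, and the difference was called for 9.12%. The Notch and early T factors had a median log2FC of 2.35 in the genetic and −0.13 in the drug effect over 18 tested genes. There 14 were called higher and 2 lower in the genetic effect, 1 higher and 2 lower in the drug effect, and the difference was called for 9. Without library 244 the 14 were 9, and without library 262 the 9 called differences were 4. Chemokines and their receptors had medians of 2.90 and 0.15 over 17 genes, with 9 called higher and 3 lower in the genetic effect, 2 higher and 4 lower in the drug effect, and a called difference for 10. These 10 were 6 without β-catenin 244 or untreated 249, 4 without sorted control 249, inhibitor 251 or untreated 251, and 3 without β-catenin 262, sorted control 242 or 251 or inhibitor 242. The 3 lower genetic calls were 1 without sorted control 249 or 251, and the 4 lower drug calls 2 without inhibitor 242 or 251. Genes of MHC class II presentation had medians of 0.98 and −1.13 over 13 genes, but only 1 was called higher and 1 lower in the genetic effect and 2 lower in the drug effect. Without inhibitor 249 those were 5 genetic rises and 4 drug falls. Glycogen metabolism, in which GSK3 was first described, had medians of 0.24 and −0.12 over 12 genes, with 3 called higher and 1 lower in the genetic effect and 2 higher and 1 lower in the drug effect. Pygm, a glycogen phosphorylase, was lower in both effects (log2FC −2.62 ± 0.36 and −2.15 ± 0.36). The glycogen-targeting phosphatase subunit Ppp1r3b was higher in both by similar amounts (log2FC 1.11 ± 0.14 and 0.80 ± 0.14). The lists were compiled with earlier results of these data known, so that these counts and medians describe them and test nothing about them.

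**Figure D5:**
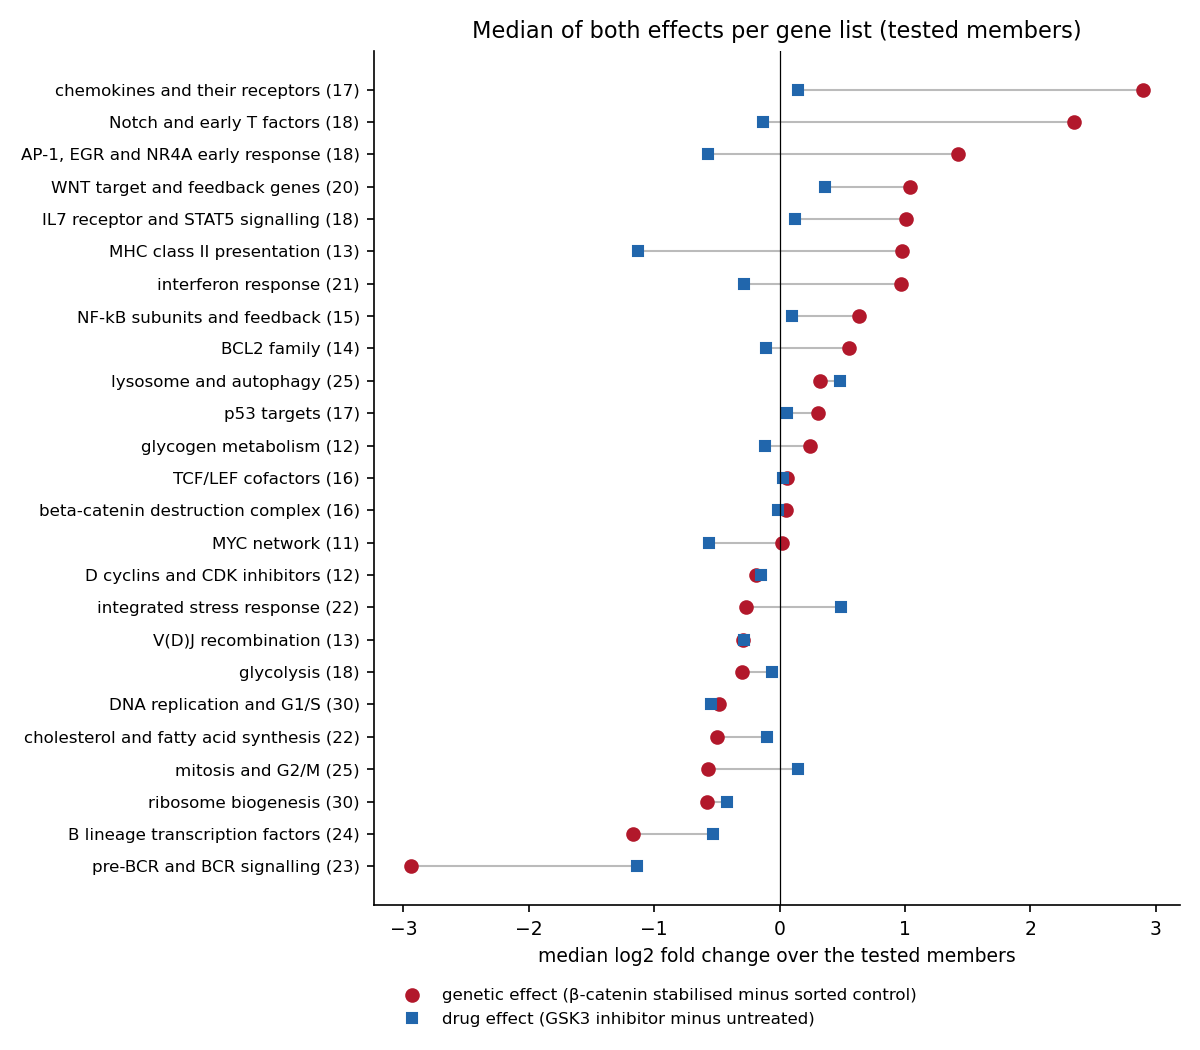
Median log2 fold change over the tested members (number in brackets) of 25 process lists, for the genetic effect (circles) and the drug effect (squares) on the horizontal axis. The medians of the replication list lie together at −0.48 and −0.55, while those of the Notch and early T list lie at 2.35 and −0.13.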

How the data were processed

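The deposited table gives FPKM per gene for 12 libraries, computed by the authors; the submitters' processing notes name HISAT2, HTSeq, Cufflinks and GRCm38 (mm10), with roles, versions and strand use not given in the sources used here, so overlapping genes may share reads. No per-sample column was left unused (0). Gene positions came from GENCODE M21, which held 98.8% of the IDs. FPKM steps gave whole fragments (tolerance 1e-05) for all 25186 genes where this could be tested, and these gave the depth per library.

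Genes that reached 1 FPKM in 3 or more libraries were tested on log2(FPKM + 1), pseudocount 1, with limma 3.58.1 (R 4.3.3, lmFit and eBayes with trend) in 1 model of 4 groups. The contrasts were genetic, drug and genetic minus drug, with Benjamini-Hochberg adjustment over all tested genes. All adjusted p-values are from limma. The fit was tested on simulated data. Python 3.11.15 with pandas 2.3.3 and matplotlib 3.10.9 did the rest.

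Both unsorted groups share library numbers, and their deviations from the group means correlated at 0.593, 0.754 and 0.37 for numbers 242, 249 and 251. Inhibitor 251 correlated with untreated 242 nearly as well (0.361), so the values bear out the pairing for 242 and 249 but not for 251. Sorted controls share these numbers too, and correlated with untreated libraries of the same number at 0.151, 0.124 and 0.0408. The main model does not pair libraries. The β-catenin libraries have numbers of their own.

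Alternatives were a pseudocount of 0.1, no filter on low values, quantile normalization, median centring, separate fits of 6 libraries, a replicate block, each library left out, both unsorted 249 libraries left out, and library 244 left out with them. Voom on the recovered fragments, and library 244 left out with the same genes tested, were chosen after seeing the data.

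Genes were named by a rule. It takes protein coding genes without overlap between groups, up to 8 for each shared or opposite pattern, up to 6 for each one-sided or equal pattern, a fixed few of the WNT pathway, and up to 3 called members per list. List members named beyond it were chosen after their values were seen. Members and lists were chosen with earlier results of these data known.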

Additional observations from a re-analysis of the deposited data

How the results depend on the processing

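Of the 160 genes that the naming rule gives, not all of which the text describes, no called direction reversed in any of the alternatives, and 52 kept every call. A pseudocount of 0.1 gave 269 one-sided genetic genes. Without a filter 808 differences and 56 opposite genes were called. Separate fits gave 62 opposite and 534 equal genes. Without library 244 and both unsorted 249 libraries there were 1947 differences, 240 opposite and 446 one-sided drug genes. Voom gave 611 differences, 173 one-sided genetic and 131 one-sided drug genes. The cause of these shifts was not tested.

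With 1 library left out, genetic calls ran from 3035 to 5163, differences from 479 to 1997, opposite genes from 51 to 174, one-sided genetic genes from 119 to 658, one-sided drug genes from 89 to 423 and equal effects from 520 to 1113. A group reduced to 2 libraries borrows its spread from the others.

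With the replicate block, which keeps the pairing of numbers, 4778 genetic, 3448 drug and 1578 difference calls were made, with 1665 genes in the same direction, 138 opposite and 997 equal, none of them moved by over 1.5 times. Among the genes described whose calls were followed over the alternatives, the block changed the difference of Pim2 to called (adjusted p = 0.0401) and the drug effect of Igll1 to called (0.0427).

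Genes of a few fragments per library are limited by depth. A gene that is high in 1 group of 3 falls under the filter when a library of that group is left out. That was so for Bcl11b, Notum, Eomes and Sp9.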
